A study of Mus musculus with 249 samples.

Results

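Mouse chromosome 7 was read as 3739 windows of 40 kb, from chr7:3000001 to chr7:152524553 in the assembly mm9, of the 60391 autosomal windows that start at 3 Mb or later and the 68162 windows listed in all. The windows were selected on position alone, but the chromosome itself was chosen by its detection: the share of its windows that were positive in none of the libraries was the highest of the 19 autosomes. That share, and the level of detection on the chromosome, are therefore given as descriptions with no test. Of the 3739 windows, 283 were never positive (7.57%), 131 were positive in 1 to 24 libraries (3.50%), and 3325 were positive in 25 or more. Over all autosomes, 1.25% of windows were never positive and 1.01% were positive in 1 to 24 libraries. At the limit of 25 libraries, 3 windows of the chromosome were positive in 23 or 24 libraries and 10 in 25 or 26.

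The libraries come from genome architecture mapping (GAM), in which thin cryosections through nuclei (nuclear profiles) are cut out by laser and collected a few to a tube. The tube's DNA then undergoes whole genome amplification and sequencing, so that loci that lie near each other in the nucleus tend to be found in the same tubes. All libraries were made from 46C, a Sox1-GFP knock-in line of mouse embryonic stem cells (strain label 129/Ola) that derives from E14tg2a, so that they share 1 genotype and 1 cell line. The cells were grown with serum and LIF and moved to a serum-free medium before harvest, and each tube is labelled with 4 profiles. The labels place them in 11 experiments: a full collection (54 libraries), and tests of amplification reagent volumes (protocols a, b and c; 10, 11 and 10), proteinase K volume (1 and 2 µl; 5 and 6), freezing after incubation (10 frozen, 11 unfrozen), early freezing (12 early, 11 late), PCR cycles (25, 23 and 20; 3, 5 and 4), cresyl violet (16 stained, 10 unstained) and kit size (11 large, 12 small), with the unstained arms of tests of propidium iodide (20), eosin (18) and SYBR Gold (10). The SYBR Gold libraries are titled unstained although their protocol text describes staining, and proteinase K volumes in the protocol text are smaller than those in the titles. By the well codes in the labels, arms of an experiment lie in different plate columns (1 column is shared by both kit sizes), so that arm and position on the plate cannot be told apart. A window is scored 1 or 0 in each library, the read depth behind a score is unknown, and nothing in the labels says that libraries of an experiment came from separate cultures, so that p-values measure the spread between these tubes.

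The region of chromosome 7 nearest the centromere holds several clusters of genes that arose by repeated duplication. Vmn1r and Vmn2r genes code for pheromone receptors of the vomeronasal organ, and their copies can be so alike that a short read fits many places equally well. The assembly also has stretches of unsequenced bases, written as N, where neither a read nor a gene can be placed. The share of a window's words of 36 bases that occur once in the genome, on either strand, is called its unique share below. It was computed from the reference sequence alone and uses none of the libraries.

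The sequences behind this are shown for 2 receptor families, each as 75 bases read from the mm9 genome in the direction of the gene. Vmn1r130 lies in the longest never positive run that holds genes, at chr7:22296949-22297023 on the plus strand, and its stretch was taken as the one with most copies among the Vmn1r genes of that run. Vmn1r174, at chr7:24539080-24539154 on the plus strand, lies in the Vmn1r window that was positive most often (70 libraries). Capitals mark bases that differ from Vmn1r130.
Vmn1r130: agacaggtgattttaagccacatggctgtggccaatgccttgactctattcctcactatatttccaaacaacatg
Vmn1r174: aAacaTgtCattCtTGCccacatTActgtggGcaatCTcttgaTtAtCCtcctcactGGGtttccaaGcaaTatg
The Vmn1r130 stretch occurs 46 times in the genome, and all 46 places are on chromosome 7. Of them, 29 lie in never positive windows, 14 in windows positive in 1 to 24 libraries and 3 in windows positive in 25 or more. The stretches of Vmn1r95 (0 libraries), Vmn1r103 (1 library) and Vmn1r128 (34 libraries) are identical to it. The Vmn1r174 stretch differs at 21 bases and occurs once.

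The same was done for the Vmn2r genes with the centre of the longest exon of Vmn2r46, at chr7:10350501-10350575 on the minus strand, in a run never positive. Vmn2r49, at chr7:10571980-10572054 on the minus strand, lies in a window positive in 78 libraries. Capitals mark bases that differ from Vmn2r46.
Vmn2r46: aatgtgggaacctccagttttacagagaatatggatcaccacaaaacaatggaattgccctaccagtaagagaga
Vmn2r49: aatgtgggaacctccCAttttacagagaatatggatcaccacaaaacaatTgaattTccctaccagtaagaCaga
The Vmn2r46 stretch occurs 5 times in the genome, 4 times in never positive windows and once in a window positive in 25 or more libraries. The Vmn2r49 stretch differs from it at 5 bases and occurs 4 times itself. For contrast, a stretch of 75 bases is shown from the window positive in most libraries (100), at chr7:46540001-46540075 on the plus strand. It was picked for occurring once, and the unique share of its window was 59.85%.
chr7:46540001-46540075: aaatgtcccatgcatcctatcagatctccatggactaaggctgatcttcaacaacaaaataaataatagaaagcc

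The 283 never positive windows formed 26 runs, of which 11 were single windows and 11 held 5 windows or more. The longest run, chr7:39360001-46360000, took in 175 windows (61.8% of the never positive ones). Of its bases, 6996194 are unsequenced and 3806 are not, and no annotated gene lies in it. In all, 177 never positive windows hold no sequenced base, 18 hold some, and 88 are sequenced throughout. On this last base the chromosome again had the highest share of the autosomes, with 88 never positive windows (2.50%) where all autosomes had 0.467%. The next were chromosome 14 (1.66%, 50 windows) and chromosome 4 (1.14%, 43 windows). The first 3 Mb of the chromosome, which are not among the members, are 75 windows without a sequenced base, and 75 of them were never positive.

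**Figure D1:**
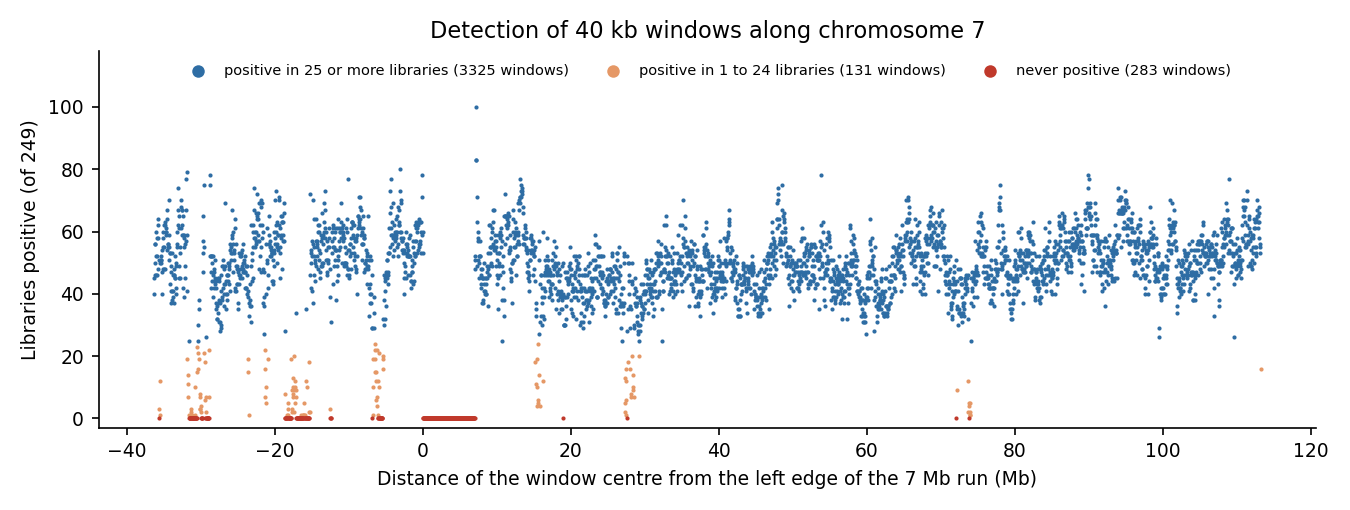
Number of libraries in which each of the 3739 windows of chromosome 7 was positive, against its distance in Mb from the left edge of the 7 Mb run; colours mark windows never positive (283), positive in 1 to 24 libraries (131) and positive in 25 or more (3325). Red and orange points cluster at a few places left of the run, and the windows just right of it reach 83 to 100 libraries.

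Outside the longest run lay 108 never positive windows, and 100 of them fell in 3 stretches. In chr7:20720001-24080000, where 47 Vmn1r genes are annotated, 51 of 84 windows were never positive, 31 were positive in 1 to 24 libraries and 2 in 25 or more. In chr7:7720001-10480000, with 13 Vmn2r genes, 35 of 69 windows were never positive, 23 were rare and 11 were positive in 25 or more libraries, with a median of 47 among these 11. In chr7:32520001-33880000, 14 of 34 windows were never positive, 17 were rare and 3 were positive in 25 or more. Both vomeronasal stretches together thus held most of the never positive windows outside the unsequenced run. The limits of the stretches were set after their values were seen.

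After the unsequenced run, the 9 longest runs lay in these stretches. The second, chr7:22240001-22880000, had 16 windows with 14 protein-coding genes, 5 of them Vmn1r genes (Vmn1r130, Vmn1r132, Vmn1r135, Vmn1r137 and Vmn1r139) and 9 unnamed Gm models, and 0.0780% of its words were unique. The third, chr7:33440001-33880000, had 11 windows with the 1 model Gm5058, and 0.0909% unique words. The fourth, chr7:21160001-21560000, had 10 windows with 5 Vmn1r genes (Vmn1r107, Vmn1r109, Vmn1r110, Vmn1r111 and Vmn1r112) and 4 Gm models. The run with Gm5058 thus holds no Vmn1r gene and the others hold 5 each, and in each of the 3 less than 1 word in 100 is unique.

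Of the next runs, chr7:8120001-8480000 had 9 windows with the model Gm10302 and 100000 unsequenced bases. The run chr7:10080001-10440000 also had 9 windows, with Vmn2r46, Vmn2r47, Gm3675 and Gm4073. There were 5 runs of 6 windows each, of which the first 4 by position belong to the 10 longest. chr7:7760001-8000000 held Vmn2r35 and Vmn2r36, and chr7:8560001-8800000 held Gm3991. chr7:20720001-20960000 held Vmn1r93, Vmn1r94, Vmn1r95 and 5 Gm models, and chr7:22920001-23160000 held Vmn1r142, Vmn1r143 and 4 Gm models. In the 9 runs past the unsequenced one, the unique share lay between 0 and 0.474%, and 99.5% or more of the words had a further copy on chromosome 7 itself.

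A few never positive windows held more unique sequence. The windows chr7:26880001-26960000, with Cyp2b9 and Cyp2b13 (cytochrome P450 enzymes), had 46.6% unique words of 36 bases and 67.0% unique words of 75 bases, the highest unique share of the 26 runs. Their neighbours were positive in 3 and 31 libraries. The window chr7:111400001-111440000, with Trim34a and Trim5 of the tripartite motif family, had 37.4% unique words, and its neighbours were positive in 41 and 9 libraries. The window chr7:26800001-26840000, with no protein-coding gene, had 27.5%. The first 75 bases of a Cyp2b9 exon, at chr7:26958430-26958504 on the plus strand, are identical to a stretch of Cyp2b13 at chr7:26846516-26846590, and these are the 2 places of this sequence in the genome.
Cyp2b9: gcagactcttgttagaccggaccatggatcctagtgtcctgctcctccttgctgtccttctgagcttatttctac
Other never positive windows held Pira5, a paired immunoglobulin-like receptor (13.6% unique words), Vmn2r42 (2.20%) and the models Gm6666 (14.4%), Gm5116 and Gm5327 (11.3% over 2 windows).

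Over the whole chromosome, detection followed the unique share. The 106 never positive windows that hold any sequence had a median unique share of 0% (quartiles 0 and 0.300%), and the median share of their words with another copy on chromosome 7 was 100%. Windows positive in 1 to 24 libraries had a median unique share of 7.60% (quartiles 2.90 and 18.2%), and those positive in 25 or more had 91.9% (quartiles 80.2 and 95.9%). With words of 75 bases the medians were 0.150%, 20.1% and 97.6%. The 3 classes thus kept their order at both lengths.

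Among the 3519 windows of the chromosome that are sequenced throughout, 133 had a unique share under 5%. Of these, 80 were never positive (60.2%), 47 were rare and 6 were positive in 25 or more libraries. Between 5 and 20%, 4 of 105 were never positive and the median window was positive in 22 libraries. Between 20 and 50%, 3 of 144 were never positive, with a median of 45 libraries, and between 50 and 80%, 1 of 650, with a median of 46. Between 80 and 90%, 0 of 599 were never positive, and from 90% upwards 0 of 1888, with medians of 49 and 52 libraries.

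The other autosomes had a smaller share of such windows. There, 353 windows had a unique share under 5% (0.630% of those sequenced throughout, against 3.78% on chromosome 7), and 49.01% of them were never positive. Between 5 and 20%, 0.706% were never positive there and the median was 32 libraries, against 3.81% and 22 on chromosome 7. Had each class of unique share on chromosome 7 lost windows at the rate of the other autosomes, 66.8 of its fully sequenced windows would have been never positive, where 88 were. Of the fully sequenced windows with a unique share of 80% or more, 1 on chromosome 7 was positive in fewer than 25 libraries (16), and it is the cut-short last window of the chromosome.

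**Figure D2:**
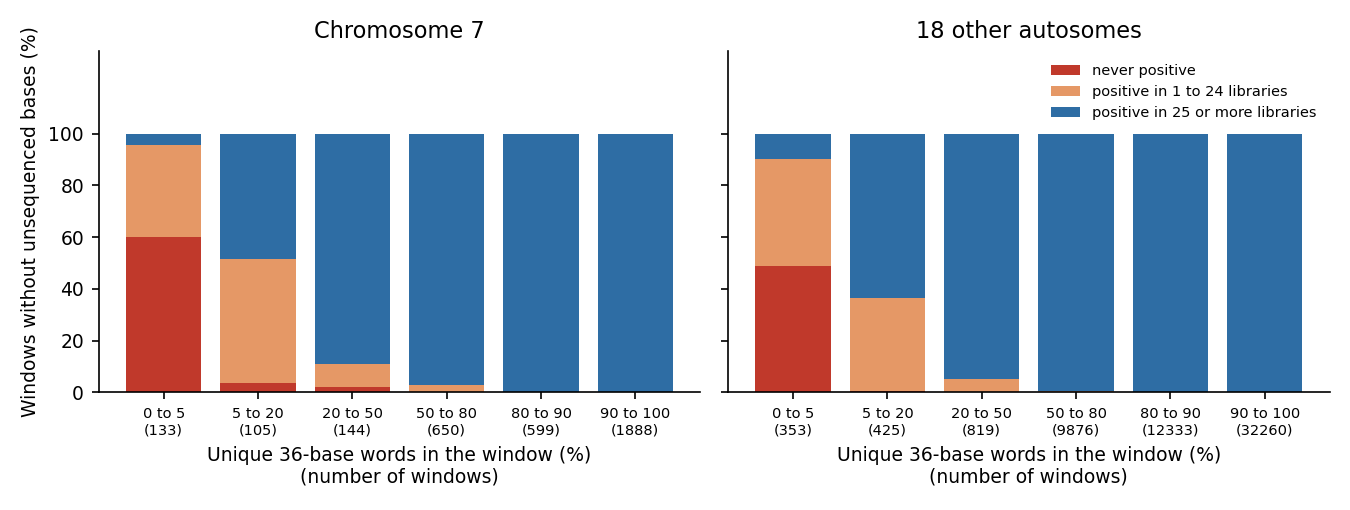
Windows without unsequenced bases, grouped by the percent of their 36-base words that are unique in the genome, for chromosome 7 (left) and the 18 other autosomes (right); bars give the percent of windows never positive, positive in 1 to 24 libraries and positive in 25 or more. Under 5% unique words, 60.2% of windows on chromosome 7 and 49.01% on the other autosomes were never positive.

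A low unique share did not always go with low detection. On the chromosome, 57 fully sequenced windows with a unique share under 20% were positive in 25 or more libraries. Among them were windows with the Zscan4 genes, which mark a rare state of embryonic stem cells, and the Obox genes, homeobox genes of the oocyte. The window chr7:7440001-7480000 had 12.3% unique words and was positive in 79 libraries, and chr7:10560001-10600000, with Vmn2r49, had 17.4% and 78 libraries. The windows chr7:5640001-5680000 and chr7:5680001-5720000 had 0% unique words and were positive in 37 and 46 libraries. Their copies lie largely on contigs that the assembly does not place on a chromosome: without those contigs, 56.2% and 62.6% of their words were unique. Whether the contigs were part of the authors' index is not given in the sources used here.

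Within the Vmn1r family, 103 annotated genes on the chromosome touched 97 windows, of which 22 were never positive and 19 were rare. By gene, 20 lay in never positive windows throughout (median unique share 0.250%), 25 reached 1 to 24 libraries (6.45%) and 58 reached 25 or more (61.9%). For the 102 gene symbols, the stretch closest to that of Vmn1r130 differed at a median of 0 of 75 bases (range 0 to 1) in the 20 genes whose stretch lay in a never positive window. It differed at 1 base (0 to 3) in the 25 genes in rare windows, and at 31 bases (0 to 39) in the 57 genes in windows positive in 25 or more libraries. At 0 differences, the genes Vmn1r128, Vmn1r129 and Vmn1r158 still lay in windows positive in 34, 34 and 35 libraries. The reference was picked as the most copied stretch of a never positive run, so low differences in that class follow in part from this choice.

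Of 51 Vmn2r genes in 79 windows, 4 lay in never positive windows throughout and 7 reached 1 to 24 libraries, and 6 windows were never positive. The reference stretch was chosen by another rule here, so the differences of both families are not compared. It also comes from a never positive run, so low differences in that class follow in part from the choice. The closest stretch differed at a median of 5 bases (range 0 to 7) in the 5 genes with a never positive window there, at 6 bases (1 to 7) in 7 genes in rare windows, and at 36 bases (0 to 39) in 39 genes in windows positive in 25 or more. Vmn2r29 has 0 differences and a window positive in 45 libraries, Vmn2r44 has 1 and 75 libraries, and Vmn2r50 has 2 and 75 libraries. Differences of about 30 bases or more are the closest ungapped match in genes of little similarity and should be read as no match.

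**Figure D3:**
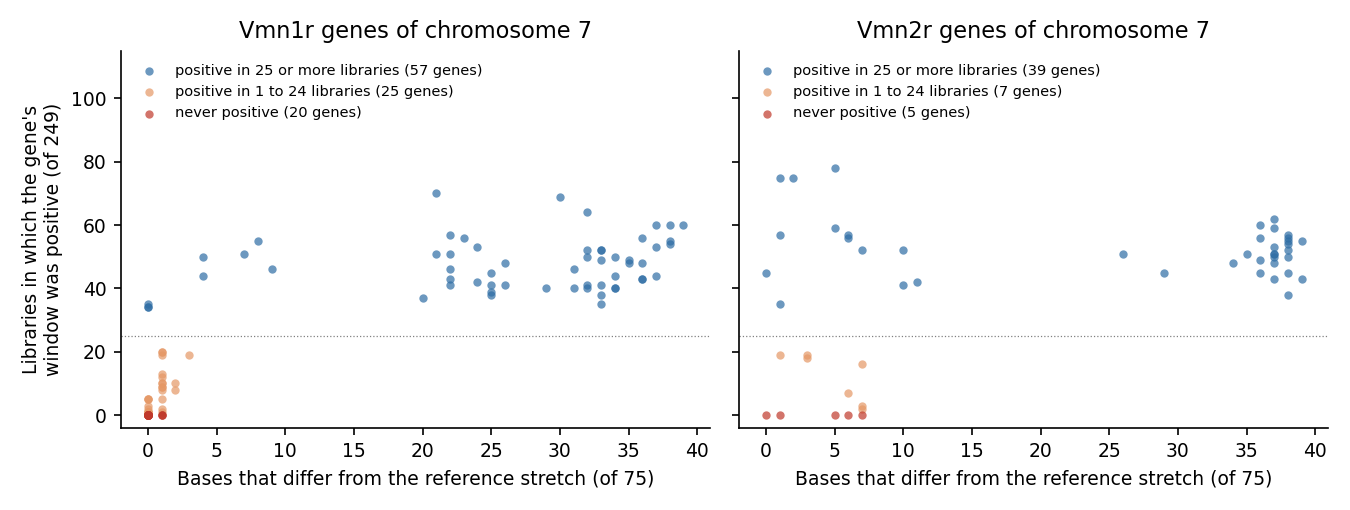
For each Vmn1r gene (left, 102 symbols) and Vmn2r gene (right, 51) of chromosome 7, the bases that differ from the reference stretch of 75 bases (Vmn1r130 or Vmn2r46) against the number of libraries in which the window with that stretch was positive; the dotted line is at 25 libraries. Genes with 0 to 7 differences range from 0 to 51 libraries in Vmn1r and from 0 to 78 in Vmn2r. The reference stretches were chosen by different rules, both from never positive runs.

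Most other gene families of the chromosome were in detected windows throughout. The 240 Olfr genes, which code for odorant receptors, touched 126 windows, and 126 of these were positive in 25 or more libraries (median 45.5). The same held for 95 of 95 windows with 87 Zfp genes (zinc finger proteins, median 59), 29 of 29 with 14 Nlrp genes (median 49), 16 of 16 with 14 Psg genes (pregnancy-specific glycoproteins, median 52) and 14 of 14 with 27 Klk genes (kallikrein proteases, median 53.5). It also held for 9 of 9 windows with 5 Obox genes (median 44), 6 of 6 with 6 Zscan4 genes (median 36.5) and 4 of 4 with 4 Siglec genes (median 62). Likewise detected were 3 of 3 windows with 4 Krtap genes (median 50) and 3 of 3 with 5 symbols that start with Saa (median 58). The single windows of Scgb (59 libraries) and of Abpa (53), the only Abp symbol counted here, were also positive in 25 or more.

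The remaining families each lost a few windows. Of 20 windows with 15 Ceacam genes, 1 was rare. Of 21 windows with 19 Mrgpr genes, receptors of sensory neurons, 4 were rare, and the least detected gene reached 11 libraries. Of 20 windows with 15 Cyp2 genes, 2 were never positive and 1 was rare, which are the windows of Cyp2b9 and Cyp2b13. Of 17 windows with 17 Trim genes, 1 was never positive and 1 was rare, and 1 gene, Trim5, lay in the never positive window throughout. No symbol on the chromosome began with Abpbg or Tas2r. Abph and Abpe, in chr7:32000001-33000000, and Abpd, Abpz, Abpg and Abpb, in chr7:34000001-35000000, were not counted with Abpa. Windows positive at least once averaged 31.4 libraries in the first bin, which had 1 never positive window, and 48.1 in the second, which had 0. The first bin overlaps the stretch chr7:32520001-33880000 named above.

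The single genes named here were all in windows positive in 25 or more libraries. The imprinted genes near the centromere had high counts, with 61 and 70 libraries in the 2 windows of Peg3, 68 and 70 in those of Zim1, and 65 in that of Usp29. The imprinted Prader-Willi and Angelman region was lower, with 36 to 50 libraries over 5 windows of Snrpn, 51 for Ndn, 50 for Magel2, 48 for Mkrn3 and 50 to 53 for Ube3a. In the third imprinted cluster, H19 had 47, Igf2 49 and 51, Ins2 45 and 51, Kcnq1 55 to 68 over 9 windows, Cdkn1c 62 and Phlda2 70. No test between single windows was run.

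Utf1, a transcription factor of embryonic stem cells, had 61 libraries, and the growth factor genes Fgf4 and Fgf3 had 70 and 65. Ccnd1, a cyclin, had 61 and 67, the apoptosis gene Bax 73 and 74, the deacetylase gene Sirt2 48 and 52, and Apoe 48. Among long genes with neuronal functions, Dlg2 had a median of 40 libraries over 49 windows (27 to 54), Nell1 41 over 24 (34 to 55), Gabrg3 43.5 over 18 (36 to 48), Gabra5 46 over 4, Otud7a 48 over 9 and Odz4, now Tenm4, 52 over 20. Tyr, the tyrosinase gene of pigment cells, had 35 to 42, Hbb-b1, a beta globin, had 45, and Dmbt1 had 44 to 50.

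The windows positive in most libraries lay beside the 7 Mb run of N. On its right, chr7:46520001-46560000 was positive in 100 libraries (40.2%), which was 18 of 54 libraries (33.3%) in the full collection and 82 (42.1%) outside it. Across experiments its share ran from 0% in the proteinase K test to 66.7% in the eosin test. The windows on either side of it, chr7:46480001-46520000 with Gm16387 and chr7:46560001-46600000, were each positive in 83 libraries. The 3 windows that touch the run on the right had 51, 52 and 48 libraries, so the peak lies beyond them. On its left, the last 5 windows had 59, 78, 71, 60 and 53 libraries, against a median of 49 over detected windows of the chromosome. The sequences on both sides are alike: of the words in the 400 kb on the left, 36.1% also occur in the 400 kb on the right. The part of these shared words in the counts was not tested.

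At the other end, 17 windows were positive in a single library, of which chr7:3800001-3840000 (Pira5), chr7:7720001-7760000 (Vmn2r35) and chr7:8080001-8120000 are the first 3 by position. Their unique shares were 2.75, 2.15 and 2.00%. Outside the full collection 287 windows were never positive, of which 110 hold any sequenced base and could be positive at all, and 4 of these 110 were positive in the full collection. With fewer libraries the class was larger, since 327 windows (150 with sequence) were never positive in the full collection, of which 44 were positive elsewhere.

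In bins of 1 Mb, the mean number of libraries over windows positive at least once was highest at chr7:52000001-53000000 (65.2 ± 7.83, SD over 25 windows, 69 gene starts). Next came chr7:133000001-134000000 (63.2 ± 6.92, 34 gene starts) and chr7:134000001-135000000 (62.8 ± 5.51, 52 gene starts). The lowest were chr7:21000001-22000000 (7.93 ± 6.06 over 14 windows), chr7:23000001-24000000 (8.60 ± 11.0 over 10) and chr7:22000001-23000000 (11.1 ± 10.7 over 7), all in the Vmn1r cluster. Over 144 bins, which share libraries and are not independent, the mean correlated with the unique share (Pearson r = 0.69, Spearman rho = 0.43), with GC content (0.57 and 0.69) and with gene starts (0.26 and 0.44). Among 2486 well covered windows with a unique share of 80% or more, r with GC content was 0.42.

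The next comparison asked whether gene-dense parts of the chromosome were found more often. In windows positive in 25 or more libraries, detection in the 48 bins with 15 or more gene starts averaged 21.6% ± 13.8 (SD over libraries), and in the 50 bins with 5 or fewer 18.3% ± 13.4. The mean difference was 3.29 ± 0.52 percentage points (SE), and the difference was above 0 in 166 libraries. This mean differed from 0 by a sign-flip permutation test over libraries (p = 1e-05, Benjamini-Hochberg adjusted p = 2.5e-05 over 5 tests). The unadjusted p is the smallest that 100000 resamples can give. With the same limits on the other autosomes the difference was 3.54 ± 0.22 points. Between chromosome 7 and these, -0.25 ± 0.54 points separated the differences, which did not pass the test (permutation p = 0.63, unchanged by adjustment). With bins of chromosome 7 split by GC content instead of gene starts, the difference was 4.16 ± 0.60 points (SE). Gene density and GC content were not told apart.

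Among windows positive in 25 or more libraries, the mean detection of chromosome 7 was close to that of the other autosomes. The percent of its 3325 such windows that were positive in a library ran from 0.120% to 63.8%, with a median of 18.3% and a mean of 20.1% ± 13.1 (SD), where the other autosomes averaged 20.3% ± 8.62. The difference was -0.13 ± 0.73 percentage points (SE), with 123 libraries above 0. It was 0.53 ± 0.85 without the full collection, -0.66 ± 0.73 against windows weighted to the GC content of chromosome 7, and -1.92 ± 0.66 over all listed windows, which take in the never positive ones. Single libraries differed from this mean by far more, with an SD of 11.5 points. In 12 libraries less than 2% of the windows of the chromosome were positive, among 7 experiments, while 3.97 to 26.5% of the windows of other autosomes were positive in the same libraries. Other single autosomes had 9 to 21 such libraries, with a median of 15.5.

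**Figure D4:**
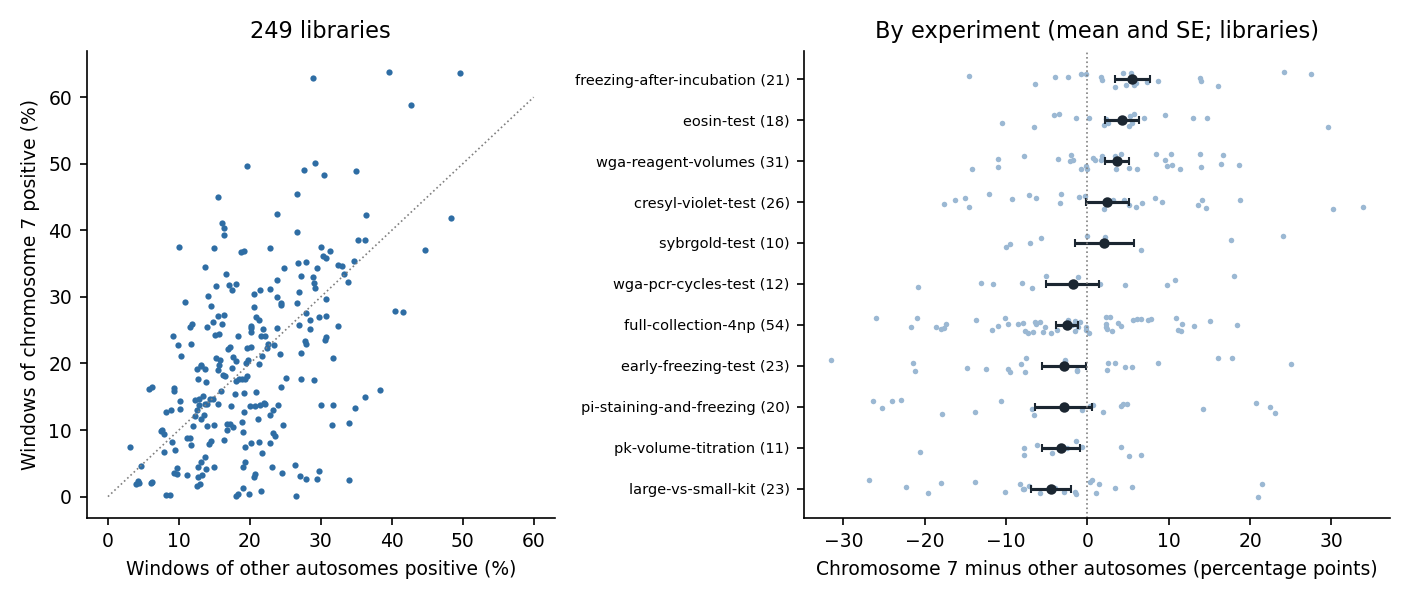
Left, percent of chromosome 7 windows positive against the percent of other autosomal windows positive in each library, over windows positive in 25 or more libraries, with the line of equality dotted. Right, the difference in percentage points by experiment (number of libraries), with points for libraries and the mean with its SE; means run from -4.48 in the kit test to 5.53 in the test of freezing after incubation.

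The difference between chromosome 7 and the other autosomes varied between experiments. Its mean was highest in the test of freezing after incubation (5.53 ± 9.75 points, SD, n = 21), the eosin test (4.25 ± 9.03, n = 18) and the reagent volume test (3.62 ± 8.41, n = 31). It was lowest in the kit test (-4.48 ± 11.7, n = 23) and the proteinase K test (-3.24 ± 7.64, n = 11), and -2.51 ± 9.94 in the full collection (n = 54). The ranges of all experiments overlap. The F statistic was 2.30 (permutation p = 0.0135, adjusted p = 0.0226 over 5 tests). Without the full collection it was 2.08 and did not pass (permutation p = 0.0325, adjusted p = 0.0541). Among the 19 autosomes, each against the others, 3 had an unadjusted permutation p under 0.05 for this F, and chromosome 7 had the second highest value after chromosome 5. Experiment, plate and protocol cannot be told apart here.

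Within experiments, 0 of 11 contrasts between arms passed an adjusted p of 0.05 or an unadjusted one. The largest was in the PCR test, where the 3 libraries of 25 cycles had -13.6 ± 7.05 points (SD), the 5 of 23 cycles 1.51 ± 11.2 and the 4 of 20 cycles 2.83 ± 9.02. Between 25 and 23 cycles lay -15.1 points (exact permutation p = 0.0714, adjusted p = 0.427), and that of 25 and 20 cycles -16.4 points (exact permutation p = 0.114, adjusted p = 0.427), a pair of arms whose smallest possible p is 0.0571. The reagent protocols a, b and c had 1.70 ± 9.61, 6.95 ± 6.52 and 1.89 ± 8.68 points, and b minus a was 5.26 (permutation p = 0.155, adjusted p = 0.427). In the other 5 experiments the arms differed by -1.84 to 4.41 points, with adjusted permutation p of 0.925.

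The neighbour share is the percent of positive windows that have a positive adjacent window, and falls where positive windows are scattered. In 243 libraries with 20 or more positive windows on the chromosome it was 79.1% ± 13.6 (SD), and 81.7% ± 11.8 on the other autosomes pooled. The difference was -2.56 ± 0.57 points (SE; adjusted p = 2.5e-05 from a sign-flip permutation p of 1e-05, again the lowest possible), with 98 libraries above 0. This was not particular to chromosome 7: set against the rest in the same way, all 19 autosomes had a negative mean, and chromosome 7 ranked 12 from the lowest. Against the mean of the other autosomes taken singly, in 159 libraries, the difference was 0.59 ± 0.66 points (permutation p = 0.37).

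Linkage between windows was measured as normalized linkage disequilibrium (D′), which is 1 when the rarer window is positive only with the other and near 0 for windows found together as often as by their own rates. Mean D′ on chromosome 7 fell from 0.616 ± 0.0089 (jackknife SE over libraries) for adjacent windows to 0.347 ± 0.0097 at 0.5 to 1 Mb, 0.193 ± 0.011 at 2 to 5 Mb and 0.113 ± 0.014 at 20 to 50 Mb. In the full collection alone, adjacent windows had 0.649, and the mean was 0.0897 at 2 to 5 Mb and -0.022 at 20 to 50 Mb. Pairs between chromosomes were not measured in these libraries alone, so these levels have no baseline. Over all libraries, mean D′ between windows of chromosome 7 and those of other autosomes was 0.0048 ± 0.012. At 100 Mb and more, the mean over all libraries of 0.061 ± 0.019 stood 0.056 ± 0.015 above the pairs between chromosomes.

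This decay was that of an ordinary autosome. At 0.5 to 1 Mb, chromosomes 5 and 6, nearest in length, had 0.349 ± 0.0079 and 0.345 ± 0.0083, and at 20 to 50 Mb 0.122 ± 0.011 and 0.104 ± 0.011. The largest gap to the mean of the other autosomes, in units of its error, was at adjacent windows, where chromosome 7 was the lowest of the 19 (-0.010 ± 0.0056). From 5 Mb on, the difference lay between -0.0049 and 0.0012, within its jackknife SE.

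The linkage map gave a value for the 7 Mb run itself. Windows on opposite sides that would lie up to 0.2 Mb apart if the run were left out had a mean D′ of 0.484 ± 0.043 (15 pairs), and at 0.2 to 0.5 Mb it was 0.428 ± 0.035 (63 pairs). Pairs on 1 side at these shorter distances had 0.530 ± 0.0091 and 0.425 ± 0.0095. Pairs on 1 side at 7 to 7.2 and 7.2 to 7.5 Mb, the distance that the assembly gives, had 0.161 ± 0.012 and 0.159 ± 0.012. The linkage across the run thus exceeded that of its mapped distance by 0.322 ± 0.043 and 0.269 ± 0.034, and differed from that of the distance without the run by -0.047 ± 0.043 and 0.0038 ± 0.034.

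Further from the edges the excess was smaller. At 0.5 to 1 Mb without the run, pairs across it had 0.305 ± 0.033 (247 pairs), against 0.347 at that distance and 0.156 at 7.5 to 8 Mb. The same value was 0.300 in the full collection and 0.309 in the other libraries. With windows of 80% or more unique words only, it was 0.279 ± 0.043 (26 pairs), between 0.350 at the distance without the run and 0.159 at the mapped distance, which it exceeded by 0.120 ± 0.042. With these windows the excess was 0.057 ± 0.034 at 1 to 2 Mb and 0.019 ± 0.027 at 2 to 4 Mb. At 2 to 4 Mb the 3 values came together, with 0.175 ± 0.025 across, 0.203 ± 0.011 and 0.141 ± 0.013. Among the 25 pairs of the last 5 windows before the run and the first 5 after it, D′ ran from 0.285 to 0.745, with a median of 0.514. The highest was that of chr7:39160001-39200000 (59 libraries) and chr7:46520001-46560000 (100 libraries), which were both positive in 50 libraries, where 23.7 would follow from their own rates. The comparison across the run was chosen after the data had been seen, and the shared words on its sides were not separated from distance in the pairs nearest to it.

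**Figure D5:**
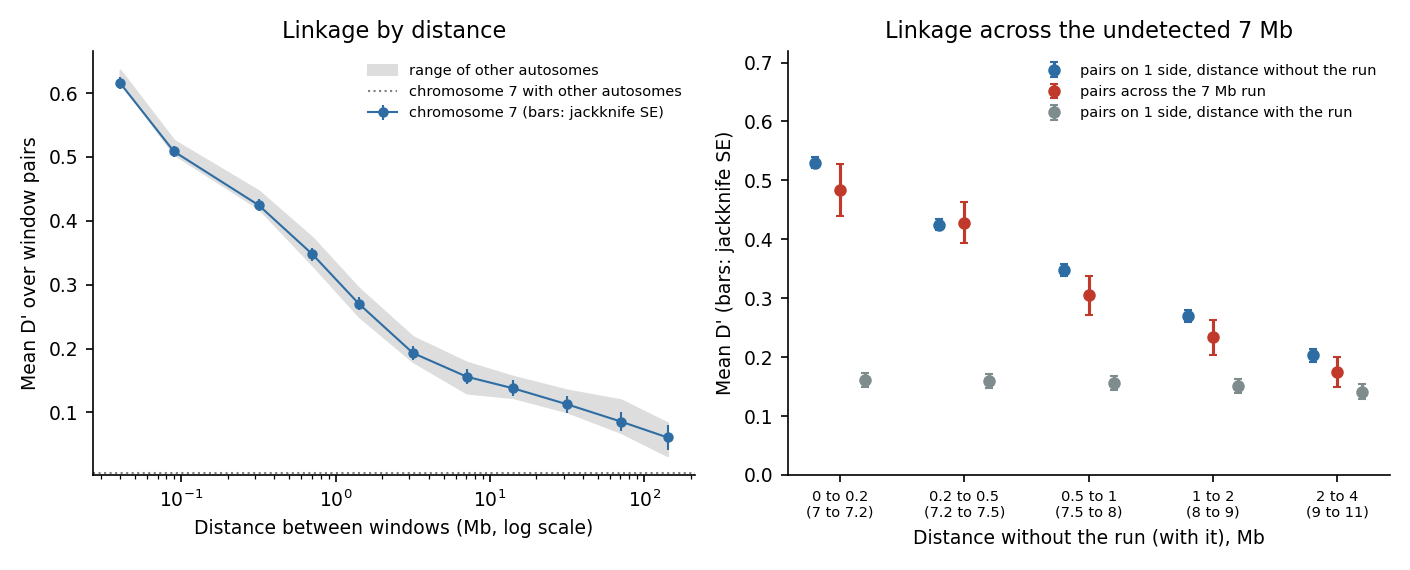
Left, mean D′ of window pairs on chromosome 7 by distance (log scale, bars jackknife SE over libraries), with the range of the other autosomes shaded and pairs between chromosome 7 and other autosomes dotted; values fall from 0.616 to 0.061. Right, pairs across the 7 Mb run (red) beside pairs on 1 side of it at the distance without the run (blue) and at the mapped distance (grey); red lies near blue at 0.2 to 0.5 Mb, at 0.428 against 0.425.

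Within 1 Mb, the mean D′ of a window with its neighbours had a median of 0.405 over 3324 windows (quartiles 0.378 and 0.434). Windows with a unique share between 5 and 20% had a median of 0.408 (51 windows), and those with 90% or more had 0.406 (1901 windows), so these medians were close, with no test made. The 6 such windows under 5% had a median of 0.366. The lowest single values were 0.253 at chr7:54640001-54680000, 0.266 at chr7:111560001-111600000 with Trim30a, and 0.271 at chr7:54360001-54400000 with Ptpn5. The second of these has 59.4% unique words and the third 97.7%.

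Large-scale blocks were read from the sign of the leading eigenvector of the D′ map in 137 bins of 1 Mb, after the mean at each distance was subtracted and with no further centring. It put 32 bins (23.4%) in the class with more gene starts per bin (15.8, against 14.04) and 105 in the other, in 49 blocks. With the map centred on its row means, 48.9% of bins were in the positive class and 54.01% of bins kept their sign (r = 0.12), so the blocks named next depend on this choice. The longest blocks of the negative class were chr7:87000001-107000000, chr7:10000001-21000000, chr7:54000001-65000000 and chr7:112000001-122000000. Those of the positive class were chr7:25000001-29000000, chr7:134000001-137000000, chr7:131000001-133000000 and chr7:138000001-140000000, the last tied in length with chr7:151000001-153000000. The blocks did not recur between separate libraries: called in the full collection and in the other libraries, 60.6% of bins had the same sign, and the eigenvectors had r = -0.06 across bins.

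The corrected maps from these 2 sets of libraries showed little likeness at any distance. Across bin pairs their correlation was 0.024 up to 1 Mb, 0.20 at 1 to 2 Mb (128 pairs), 0.070 at 2 to 5 Mb (369 pairs), and 0.0018 at 5 to 10 Mb (596 pairs). Of 8091 bin pairs more than 10 Mb apart, 81 were in the top 1% in the other libraries, and 0 of these were also in the top 1% in the full collection. Of these 81, the 4 with the highest corrected D′ in the full collection joined chr7:102000001-103000000 with chr7:125000001-126000000 (0.33 in the full collection, 0.10 in the others), chr7:60000001-61000000 with chr7:127000001-128000000 (0.29 and 0.099), chr7:32000001-33000000 with chr7:152000001-153000000 (0.29 and 0.12), and chr7:52000001-53000000 with chr7:126000001-127000000 (0.29 and 0.10). With blocks called in the full collection, detection in the other libraries was 21.9% in the positive and 21.4% in the negative class, which differed by 0.53 ± 0.53 points (SE; 97 libraries above 0, adjusted p = 0.41 from a permutation p of 0.33).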

How the data were processed

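Nuclear profiles of 46C mouse embryonic stem cells were sequenced in the tubes of all 11 experiments. Per the methods, the authors aligned reads with Bowtie2 to mm9, removed duplicates with Samtools and called a 40 kb window positive with GAMtools at a fixed threshold of 4 reads. Processing notes in the labels give Bowtie2 2.1. The deposited table holds 1 or 0 per window and library, with no counts. All library columns matched the labels, and 0 were left over.

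The chromosome, the gene lists and the named items were chosen with earlier results of these data known. Named were the 10 longest never positive runs, the 3 most and least detected windows and 1 Mb bins, the 4 longest blocks of each sign, 4 distant bin pairs, and 20 gene families and 31 single genes listed by symbol, of which 1 is not reported here. Table and NCBIM37 genome ended at the same base on every chromosome. Words were counted at every 20 bases on chromosome 7 and every 400 on other autosomes, over placed and unplaced sequence on both strands. Genes came from GENCODE vM1.

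Rates and D′ used windows positive in at least 25 libraries. D′ was averaged over pairs, between chromosomes over every 5th window, with delete-one-library jackknife errors. Tests were sign-flip or label permutations over libraries (100000 resamples, exact where an arm held fewer than 10), two-sided except for F, which used the upper tail. They were adjusted with Benjamini-Hochberg and run in Python 3 with NumPy and SciPy. The sign-flip test, the F test and D′ were checked on simulated data. Replicate numbers only name libraries. No paired analysis was possible because the labels give no shared replicate numbers.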

Additional observations from a re-analysis of the deposited data

Results flagged for a closer look

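In groups of 4 to 10 libraries, 18 tests for a library far from the rest of its group were made on the difference between chromosome 7 and the other autosomes in detection and in neighbour share, and 3 libraries stood apart, where chance gives about 1 in 20. All 3 did so in the neighbour share. In the cresyl violet test, unstained library 5 had a difference of -44.2 points while the others of its arm lay between -4.43 and 5.03. Among windows positive in 25 or more libraries, it had 45 positive ones on chromosome 7, 44.4% of them with a positive neighbour, against 88.7% on the other autosomes. In the SYBR Gold test, unstained library 8 had -46.2 points (others -4.71 to 9.47), with 106 such windows and 28.3% against 74.5%. In the reagent volume test, library 2 of protocol c had 23.3 points (others -11.7 to 2.08), with 1052 such windows and 74.0% against 50.7%.

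The difference in detection between chromosome 7 and the other autosomes varied between the 11 experiments, with F = 2.30 (permutation p = 0.0135, adjusted p = 0.0226; without the full collection, F = 2.08 and adjusted p = 0.0541).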

How the results depend on the processing

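The count of 283 never positive windows was 287 without the full collection, 283 without libraries under 5% positive, 310 with windows positive in at most 2 libraries, and 88 over fully sequenced windows. For 4 contrasts between arms, none of which passed, the sign turned: protocol c minus a became -0.15 over all listed windows and -0.87 with medians, frozen minus unfrozen after incubation -0.95, early minus late freezing 0.69, and large minus small kit 6.19 with medians. Leaving out 1 library gave -3.67 to 1.47 for proteinase K (the 2 µl arm was added later), -18.5 to -11.0 for 25 minus 23 cycles, -20.1 to -12.8 for 25 minus 20 and -5.45 to 1.96 for 23 minus 20. The comparison of gene-dense and gene-poor detection with the other autosomes, which did not pass, became 0.27 with bins taken by GC content and 0.035 with 500 kb bins. The neighbour share difference became 0.59 against single autosomes, a setting chosen after the data were seen. Without libraries under 5% or over 35% positive, D′ was 0.179 at 2 to 5 Mb and 0.0927 at 20 to 50 Mb. In the full collection alone, a setting added later, it was 0.649 for adjacent windows, 0.0897 at 2 to 5 Mb and -0.022 at 20 to 50 Mb. In a map centred on its row means, also added later, 48.9% of bins were in the positive class. The detection difference between chromosome 7 and the other autosomes (-0.13) was -1.92 over all listed windows and, within its SE but of the other sign, 0.53 without the full collection, where F over experiments was 2.08 and no longer passed. The values under all further alternatives stayed on their side of the threshold or, where no test was run, moved by no more than the error of the result. The assembly mm9 was built from another strain than that of the cells. With 0 and 1 scores only, an undetected window cannot be told from one with too few reads.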
